A study of Mus musculus with 7 samples.

Results

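The miR-146, miR-155, miR-147, miR-132 and miR-212 families are short RNAs that immune and tissue cells make after inflammatory signals. They were followed here in the mouse colorectum as 8 mature miRNAs chosen by name, out of 1915 entries in the deposited table, and all 8 were found. Small RNA was sequenced from whole colorectum of wild-type C57BL/6 female mice, aged 7 weeks at the start of treatment. The 3 CRC (colorectal cancer) mice M4, M5 and M6 were injected with the colon carcinogen azoxymethane (AOM), 10 mg per kg. From 5 days on they drank 2.5% DSS (dextran sodium sulfate, which injures the colon lining) for 7 days and plain water for 14 days, a course the labels give as repeated 3 times. The labels name the sampled stage T1 and give day 17 after induction, which the repeated course would outlast, so the event from which the day is counted is not clear. The 3 healthy mice M1, M2 and M3 were injected with 0.9% NaCl in place of AOM, and what they drank is not stated. No group had AOM alone or DSS alone, so carcinogen, injury and tumour cannot be told apart. Mouse M1 has 2 labelled libraries and 1 column in the table, which was used as 1 profile.

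A miRNA hairpin is cut into a 5p and a 3p arm. One arm, the guide, is usually kept in the Argonaute protein and pairs with messenger RNAs through its seed, and the other arm is mostly degraded. miR-146a and miR-146b are induced by NF-kB and repress the Toll-like receptor adaptors Irak1 and Traf6, which makes them brakes on innate signalling. miR-155, from the Bic transcript, is induced in activated macrophages, B cells and T cells and represses Socs1 and the phosphatase Inpp5d. miR-147 is induced in mouse macrophages by Toll-like receptor ligands. miR-132 and miR-212 come from 1 locus, are induced by CREB in neurons, and also respond to inflammatory stimuli in other cells.

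The mature sequences show which of the 8 can share targets and which can share reads. They are given as deposited, 5′ to 3′ and in DNA letters, with the seed (bases 2 to 8) in capitals. The first pair shares 1 seed, the second pair another, and the last 4 each have their own.
mmu-miR-146a-5p: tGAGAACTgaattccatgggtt
mmu-miR-146b-5p: tGAGAACTgaattccataggct
mmu-miR-132-3p: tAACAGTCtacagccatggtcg
mmu-miR-212-3p: tAACAGTCtccagtcacggcca
mmu-miR-155-5p: tTAATGCTaattgtgataggggt
mmu-miR-147-3p: gTGTGCGGaaatgcttctgcta
mmu-miR-146a-3p: cCTGTGAAattcagttcttcag
mmu-miR-212-5p: aCCTTGGCtctagactgcttact

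miR-146a-5p and miR-146b-5p are identical at 20 of 22 positions and differ by G18A and T21C, counted from the 5′ end with the miR-146a base first. Their first 17 bases are the same, so a read ending there fits both, and the sources used here do not say how the authors assigned such reads. miR-132-3p and miR-212-3p are identical at 17 positions and differ by A10C, C14T, T17C, T20C and G22A, with the miR-132 base first; they share only their first 9 bases. No other entry of the table carries either shared seed. Beyond the miR-146 pair, no member shared more than 11 consecutive bases with any other entry on either strand.

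The 6 hairpins lie at 5 places in GRCm38. Mir146 (miR-146a) is on chromosome 11 from 43374397 to 43374461 on the minus strand, with no annotated GENCODE gene other than the miRNA over it. Mir146b spans 46342762 to 46342870 of chromosome 19, intronic in Mfsd13a on the same strand. Mir155 is on chromosome 16 from 84714140 to 84714204, in an exon of the noncoding Mir155hg. Mir147 is on chromosome 2 from 122640803 to 122640881, in the untranslated part of an exon of the protein-coding AA467197. Mir212 (75173388 to 75173478) and Mir132 (75173682 to 75173747) are 203 bases apart on chromosome 11, in introns of the transcript 1700016P03Rik.

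The profiles held between 3206127 and 15280434 miRNA reads. By total reads alone, 3 reads, the limit that a count of 0 allows, correspond to between 0.196 and 0.936 CPM (reads scaled to a common library size). These limits, and the intervals below, cover counting error only. Levels are CPM on library sizes scaled by TMM, a method that centres the bulk of miRNAs between profiles. The limits above are not on this scale. All mice carried the epithelial and smooth muscle miRNAs of this tissue. The mice did not vary by group alone. The 8 smooth muscle miRNAs on a marker list summed to 218698, 45662 and 44670 CPM in M4, M5 and M6, against 576938, 824160 and 191092 CPM in M1, M2 and M3. CPM scaled by TMM are not shares of a profile's reads. By totals alone these sums were 207461, 70785 and 65575 CPM in the CRC mice, against 415648, 479697 and 211101 CPM in the healthy mice. On that scale every CRC mouse was lower, with M4 close to M3. The 8 leukocyte miRNAs summed to 8761, 7330 and 8550 CPM in the CRC mice, against 4439 and 3767 CPM in M1 and M2 and 15806 CPM in M3. The healthy mouse M3 thus had the highest leukocyte sum of all. The tests of the members are also given without M3 or without both M3 and M4 where the value moves. The labels do not set M3 or M4 apart from the other mice of their groups. Leaving them out was chosen with results of these same data known. The p-values of those fits are therefore descriptions and cannot decide whether the groups differ. A fit with neighbouring mouse numbers as blocks is also given, in which M3 and M4 are the one block that holds both groups.

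None of the 7 members that could be tested was called different in CRC mice. In edgeR's quasi-likelihood test, adjusted by Benjamini-Hochberg at 0.05 over 878 miRNAs, 0 of the 7 tested members were called, against 2.28% of all tested. At an unadjusted p under 0.05 there was 1 member, miR-146a-3p, against 23.2% of all tested. DESeq2 called 1 member, the same one, against 12.6% of all tested. limma-voom called 0 members and 0% of all, with 1 member at an unadjusted p under 0.05 against 24.6% of all. With 1 mouse left out, edgeR called 1 member without M3 (5.9% of all tested) and 1 without M4 (19.9%), and 0 members without M1, M2, M5 or M6, where 0%, 0.362%, 0% and 0% of all were called. Without M3 and M4 it called 4 members, against 53.2% of all tested. It called 0 members with RLE scaling (3.19% of all), with no filter (3.34%), with the GC trend removed (1.71%) and with neighbouring mice as blocks (3.08%). Of the 7, 5 had a positive log2 fold change, with a median of 0.35, against 48.5% positive and a median of -0.03 over all tested. With total counts as the only scaling, all log2 fold changes shifted up by a median of 0.71 and all 7 members were positive, against 77.1% of all tested, so each direction below is relative to the TMM scale. With blocks 1 of the 7 was positive, against 50.2% of all. miR-212-5p did not pass the filter on low counts.

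**Figure D1:**
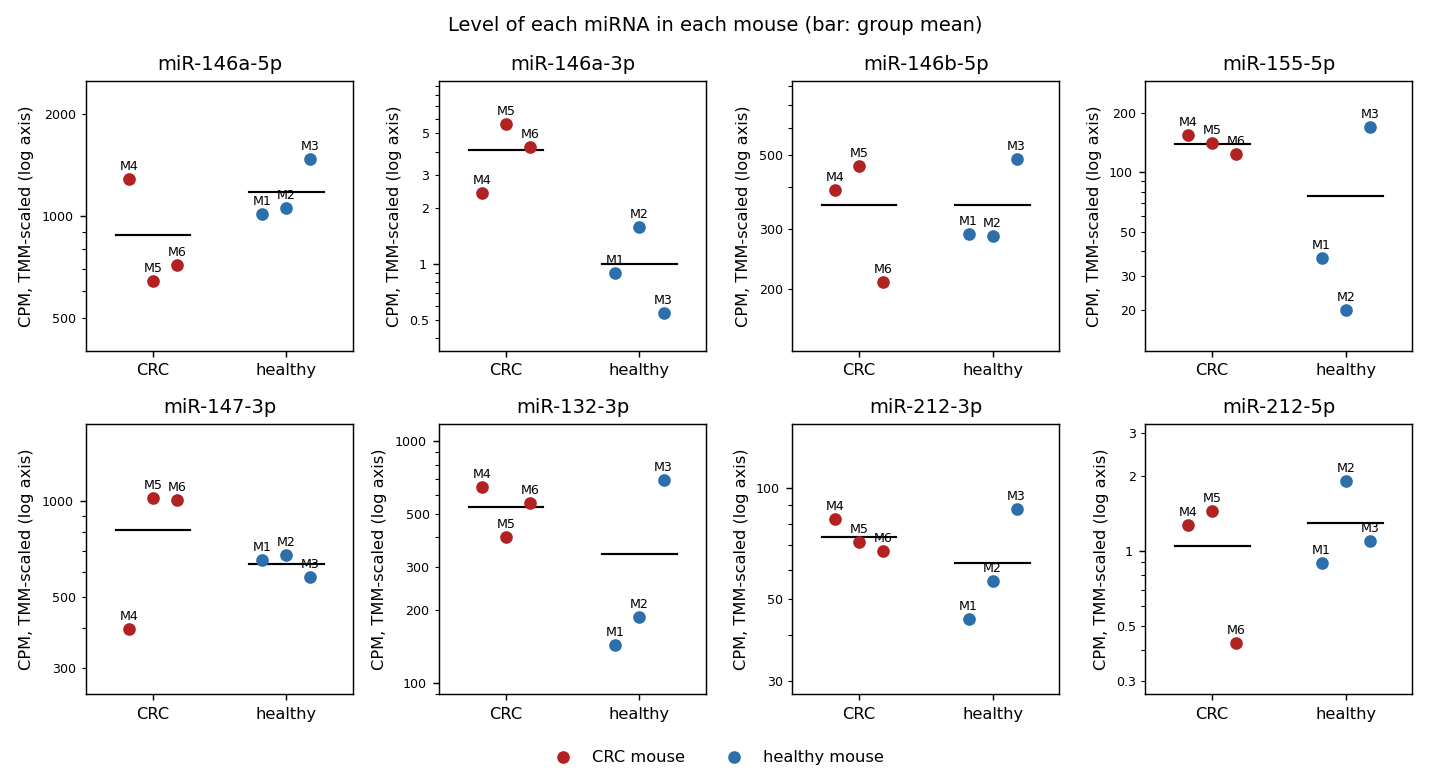
Level of the 8 members in each mouse, in TMM-scaled CPM on log axes, with CRC mice (red) left of healthy mice (blue); black bars are group means (n = 3 each). miR-155-5p, miR-132-3p and miR-212-3p were high in M3 and low in M1 and M2, and miR-146a-3p is the member whose groups do not overlap.

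miR-146a-5p, the guide arm and the most abundant of the 8 in the healthy mice, averaged less in CRC than in healthy mice on the TMM scale, without passing the test. It had 1280.0, 643 and 719 CPM in M4, M5 and M6, against 1015, 1056 and 1466 CPM in M1, M2 and M3. M5 and M6 lay below every healthy mouse, while M4 lay between them, so the groups overlap. The means were 881 ± 348 CPM in CRC and 1179 ± 249 CPM in healthy mice (SD, n = 3 each). The log2 difference was -0.42 ± 0.42 (SE), with an edgeR adjusted p of 0.578. With totals as the only scaling the value was 0.14. On the TMM scale it was -0.30 without M3 (adjusted p = 0.648, edgeR) and -0.71 without M4 (adjusted p = 0.194, edgeR). Without M3 and M4 it was -0.88 (adjusted p = 0.00502, edgeR), a fit of 2 mice against 2 in which 53.2% of all tested miRNAs were called.

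miR-146b-5p, which has the same seed, had the same mean in both groups on the TMM scale. It had 392, 463 and 209.7 CPM in the CRC mice, against 291, 288 and 486 CPM in the healthy mice, and both group means were 355 CPM. The log2 fold change was -0.00035 (SE 0.45, adjusted p = 0.999, edgeR), and its sign changed with the scaling. Summed, the pair that shares the seed had 1236 ± 388 CPM in CRC and 1534 ± 363 CPM in healthy mice (SD, n = 3 each). miR-146a-5p made up 76.5%, 58.1% and 77.4% of this sum in M4, M5 and M6, against 77.7%, 78.6% and 75.1% in M1, M2 and M3, so M5 alone had a larger part of miR-146b-5p.

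miR-146a-3p, the arm opposite the guide, had the highest log2 fold change of the 7 and was rare. It was read 15, 31 and 20 times in M4, M5 and M6, against 8, 14 and 5 times in the deeper profiles of M1, M2 and M3. These are 2.40, 5.61 and 4.25 CPM in the CRC mice, against 0.894, 1.57 and 0.550 CPM in the healthy mice. Each CRC mouse lay above each healthy mouse, as for 14.1% of all tested miRNAs, and 26.5% had groups that did not overlap in either direction. The log2 fold change was 2.00 (SE 0.61, adjusted p = 0.0971, edgeR), and 1.93 with no filter (adjusted p = 0.137, edgeR). This arm passed the filter, set at 1.35 CPM by totals in 3 mice, only through its 3 CRC mice, so its place among the tested miRNAs already leans to a higher CRC level. DESeq2 called it (2.03, adjusted p = 0.0389), and so did edgeR with totals as the only scaling (2.93, adjusted p = 0.0482), without M4 (2.36, adjusted p = 0.0298) and without M3 and M4 (1.69, adjusted p = 0.0304). The shares of all tested miRNAs called in those 3 edgeR fits were 4.9%, 19.9% and 53.2%. Without M3 alone it was not called (1.61, adjusted p = 0.124, edgeR).

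miR-155-5p divided the healthy mice more than it divided the groups. It had 154, 141 and 124 CPM in M4, M5 and M6, against 36.7 and 20.0 CPM in M1 and M2 and 171 CPM in M3. The CRC mice were close to each other, M1 and M2 lay below all of them, and M3 lay above all of them. The means were 139.7 ± 14.9 CPM in CRC and 75.8 ± 82.7 CPM in healthy mice (SD, n = 3 each). On the log2 scale CRC was 0.88 ± 0.71 (SE) higher, with an edgeR adjusted p of 0.486. Without M3 it was 2.22 (SE 0.43, adjusted p = 0.0423, edgeR; 5.9% of all tested were called), and without M3 and M4 1.94 (SE 0.31, adjusted p = 3.08e-05, edgeR; 53.2% called). Both fits left out the healthy mouse with the highest level, a choice made with the data known, so their p-values are descriptions. With neighbouring mice as blocks, where the difference rests on M4 against M3, the log2 difference was -0.15. In M3 miR-155-5p was 6.25-fold above the geometric mean of M1 and M2, and 21 of the 878 tested miRNAs stood at least as far above. All 8 leukocyte miRNAs were detected in every mouse, and their sum was likewise highest in M3 and lowest in M1 and M2. The low sums of M1 and M2 rest on miR-142a-3p. The other 7 summed to 5582, 3108 and 3192 CPM in M4, M5 and M6, against 3536, 3232 and 5861 CPM in M1, M2 and M3, so that M1 and M2 lay above M5 and M6. Their part in the level of miR-155-5p was not tested, and in whole tissue more leukocytes and more miRNA per leukocyte cannot be told apart. The other arm, miR-155-3p, was read 5, 22 and 11 times in the CRC mice, against 3, 3 and 5 times in the healthy mice, and did not pass the filter with all mice. In CPM these were 0.798, 3.98 and 2.34 in the CRC mice, against 0.335, 0.337 and 0.550 in the healthy mice. Each CRC mouse lay above each healthy one, as for 14.1% of all tested miRNAs. M4 and M3 had the same 5 reads, so M4 lay above M3 only through the library sizes. miR-155-3p passed the filter but was not called without M1 (log2 fold change 2.37, adjusted p = 0.256, edgeR), M2 (2.47, adjusted p = 0.314) or M3 (2.64, adjusted p = 0.0935). It was called by edgeR without M4 (2.99, adjusted p = 0.0198) and without M3 and M4 (2.88, adjusted p = 0.00385). There 19.9% and 53.2% of all tested were called. With all mice and no filter it was 2.41 (adjusted p = 0.142, edgeR) and not called. By totals it reached 1.35 CPM, the filter level with all mice, in 2 CRC mice and 0 healthy mice. Its place in the filtered fits thus already leaned to a higher CRC level.

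**Figure D2:**
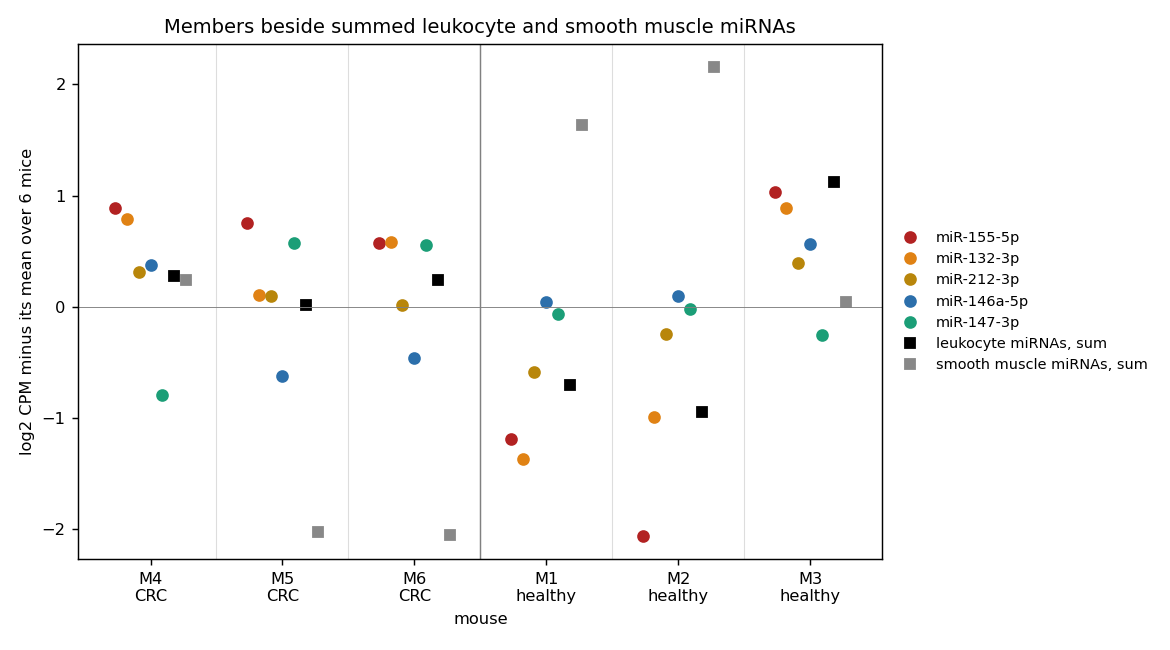
Levels of 5 members and 2 marker sums in each mouse, as log2 TMM-scaled CPM minus its mean over the 6 mice, with CRC mice left and healthy mice right. miR-155-5p and miR-132-3p (circles) lie above 0 in the CRC mice and M3 and below 0 in M1 and M2, as does the leukocyte sum (black squares), while the smooth muscle sum (grey squares) is highest in M1 and M2.

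miR-132-3p, the guide arm of miR-132, set the mice apart in the same way. It had 643, 399 and 557 CPM in M4, M5 and M6, against 144, 187 and 691 CPM in M1, M2 and M3. Again M1 and M2 lay below every CRC mouse and M3 above every one. The means were 533 ± 124 CPM in CRC and 341 ± 304 CPM in healthy mice (SD, n = 3 each). The log2 difference was 0.65 ± 0.60 (SE), with an edgeR adjusted p of 0.554. Without M3 it was 1.61 (SE 0.41, adjusted p = 0.0564, edgeR), which missed the threshold, in a fit that called 5.9% of all tested. Without M3 and M4 it was 1.26 (SE 0.28, adjusted p = 0.000918, edgeR), in a fit that called 53.2% of all tested. Here too the fits without M3 left out the healthy mouse with the highest level, so their p-values are descriptions. With neighbouring mice as blocks the log2 difference was -0.10. M3 stood 4.20-fold above the geometric mean of M1 and M2, a distance reached by 35 of the 878 tested miRNAs.

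miR-212-3p comes from the same locus and has the same seed, but varied over a narrower range. It had 82.6, 71.3 and 67.4 CPM in M4, M5 and M6, against 44.3, 56.1 and 87.5 CPM in M1, M2 and M3. The order of the mice was similar, with M1 and M2 lowest and M3 highest. The log2 fold change was 0.24 (SE 0.42, adjusted p = 0.769, edgeR). Without M3 it was 0.48 (SE 0.36, adjusted p = 0.374, edgeR), and without M3 and M4 0.18 (SE 0.28, adjusted p = 0.598, edgeR). Per read of miR-212-3p there were 7.79, 5.60 and 8.26 reads of miR-132-3p in the CRC mice, against 3.25 and 3.34 in M1 and M2 and 7.89 in M3. The log2 ratio differed by 0.69 (SE 0.46) between CRC and healthy mice, p = 0.3 in an exact two-sided permutation test, where 3 against 3 cannot go below 0.1. The ratio was therefore low in M1 and M2 and higher in the other 4 mice, in both groups.

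miR-132 and miR-212 are also made by neurons, and the nerve miRNAs of these samples ordered the mice differently. The 10 nerve miRNAs on the marker list summed to 782, 437 and 445 CPM in M4, M5 and M6, against 1785, 1988 and 968 CPM in M1, M2 and M3, with 1 of the 10 at 0 in some mouse. Nerve miRNAs were thus highest in M1 and M2, where miR-132-3p and miR-212-3p were lowest. Of the 9 tested nerve miRNAs edgeR called 0, with 4 lower at an unadjusted p under 0.05, DESeq2 called 4 and limma-voom 0. The shares of all tested, in either direction, were 2.28%, 23.2%, 12.6% and 0%. Of the 878 tested, 85 were lower at an unadjusted p under 0.05 in edgeR. edgeR called 1 of the 9 without M3 and 8 without M3 and M4 (7 of them lower), against 5.9% and 53.2% of all tested. Their part in the levels of miR-132-3p and miR-212-3p was not tested.

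miR-147-3p, the abundant arm of miR-147, set M4 apart from M5 and M6. It had 398, 1026 and 1009 CPM in M4, M5 and M6, against 656, 678 and 578 CPM in M1, M2 and M3. M5 and M6 lay above the healthy mice and M4 below them. The means were 811 ± 358 CPM in CRC and 637 ± 52.5 CPM in healthy mice (SD, n = 3 each). The log2 difference was 0.35 ± 0.45 (SE), with an edgeR adjusted p of 0.678. Without M3 it was 0.17 (adjusted p = 0.801), without M4 0.77 (adjusted p = 0.122) and without both 0.33 (adjusted p = 0.251, edgeR). With neighbouring mice as blocks it was -0.54 and not called. Unlike miR-155-5p and miR-132-3p it was not high in M3, which lay at -0.21 log2 units from the mean of M1 and M2.

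**Figure D3:**
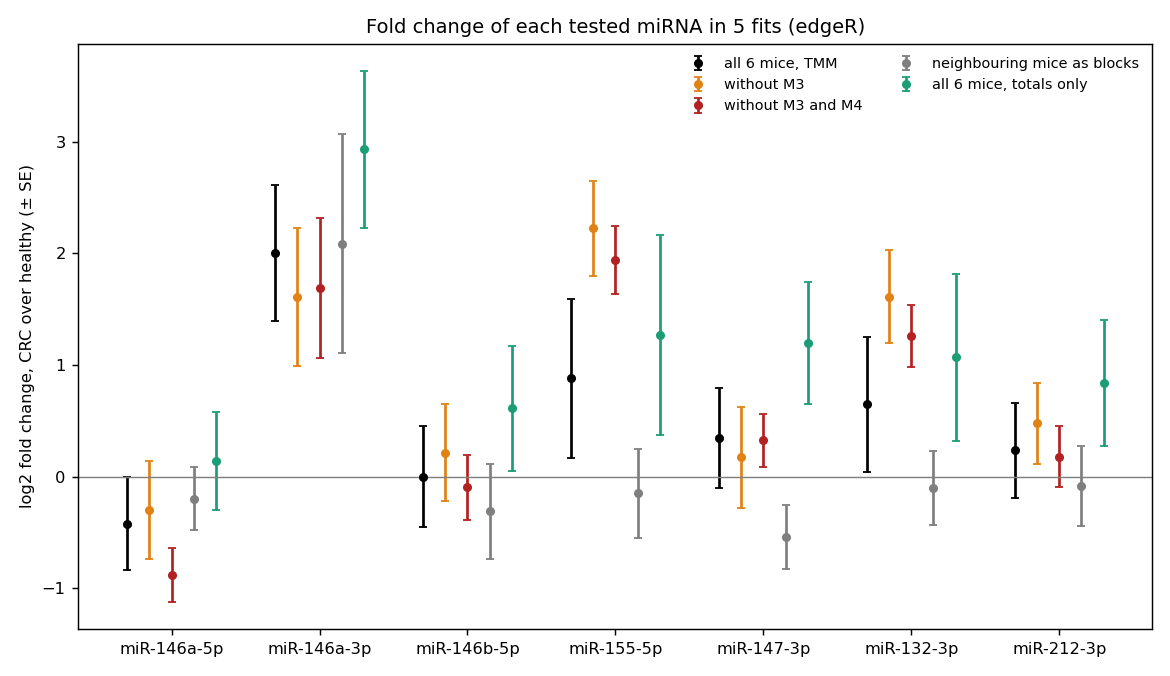
Log2 fold change of CRC over healthy, with its SE, for the 7 tested members in 5 edgeR fits. Values for miR-155-5p and miR-132-3p are near 2.22 and 1.61 without M3 (orange) and below 0 with neighbouring mice as blocks (grey), whereas miR-146a-3p is positive in all 5.

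The arms opposite the guides gave further values from the same hairpins. miR-147-5p had 31.8, 30.9 and 30.6 CPM in M4, M5 and M6, against 67.3 and 89.9 CPM in M1 and M2 and 25.0 CPM in M3 (log2 fold change -0.97, SE 0.51, adjusted p = 0.288, edgeR). M3 again sided with the CRC mice on the TMM scale. By totals alone miR-147-5p had 30.1, 48.0 and 44.9 CPM in M4, M5 and M6, against 48.5, 52.4 and 27.6 CPM in M1, M2 and M3. Its log2 fold change was then -0.064. On the TMM scale without M3 it was -1.42 (adjusted p = 0.0557, edgeR) and without M3 and M4 -1.64 (adjusted p = 0.000101, edgeR). miR-132-5p had 87.5, 69.7 and 76.3 CPM in the CRC mice, against 26.5 and 36.4 CPM in M1 and M2 and 71.6 CPM in M3 (0.80, SE 0.47, adjusted p = 0.329, edgeR). Without M3 it was 1.23 (adjusted p = 0.0807, edgeR) and without M3 and M4 0.93 (adjusted p = 0.0115, edgeR). Its order was near that of miR-132-3p, which is cut from the same hairpin. Without M3 and M4 edgeR thus called 3 of the 4 arms opposite a listed member, against 53.2% of all tested. miR-146b-3p was read 8, 7 and 7 times in the CRC mice, against 3, 9 and 12 times in the healthy mice (0.58, SE 0.68, adjusted p = 0.640, edgeR). miR-212-5p was read 8, 8 and 2 times in the CRC mice, against 8, 17 and 10 times in the healthy mice. With no filter its log2 fold change was -0.36 (SE 0.84, adjusted p = 0.874, edgeR), and it was not called.

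The balance of the arms does not depend on scaling, and differed most for miR-146a. miR-146a-3p made up 0.187%, 0.865% and 0.587% of the reads of its hairpin in M4, M5 and M6, against 0.0880%, 0.149% and 0.0375% in M1, M2 and M3. The exact (Clopper-Pearson) 95% intervals were 0.105% to 0.308% in M4 and 0.0814% to 0.250% in M2, which overlap, and 0.588% to 1.23% in M5 and 0.359% to 0.906% in M6, which lie above those of all healthy mice. The log2 ratio of 3p to 5p was 2.48 higher in CRC than in healthy mice (SE 0.86), with an exact two-sided permutation p of 0.1, the smallest possible, and 0.583 adjusted over the 7 ratios tested. Of 236 hairpins with at least 10 reads on average on each arm, 12, miR-146a included, had a difference at least as large. Groups that did not overlap were found in 14.4% of the 236. miR-146a-3p, with 15, 31 and 20 reads in the CRC mice against 8, 14 and 5 in the healthy mice, reached that average mainly through CRC reads. The place of miR-146a among the 236 thus already leans to a higher 3p share in CRC.

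The share of the miR-147 5p arm varied between mice across the groups. miR-147-5p was 7.40%, 2.93% and 2.94% of the hairpin's reads in M4, M5 and M6, against 9.30%, 11.7% and 4.14% in M1, M2 and M3. The exact 95% intervals of M3 (3.63% to 4.70%) and M4 (6.43% to 8.45%) do not overlap, and M3 is nearer to M5 and M6 than to its own group. The log2 ratio of 3p to 5p differed by 1.00 (SE 0.68, exact permutation p = 0.2). For miR-155 (0.71, SE 1.01, p = 0.5), miR-212 (0.61, SE 0.59, p = 0.5) and miR-132 (0.064, SE 0.31, p = 0.8) the log2 ratios of 3p to 5p, with p from the same exact permutation test, also overlapped between the groups, and for miR-146a-5p to miR-146b-5p the difference was -0.44 (SE 0.43, exact p = 0.5). With adjustment over the 7 ratios, all had p of 0.583 or more in these exact tests.

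**Figure D4:**
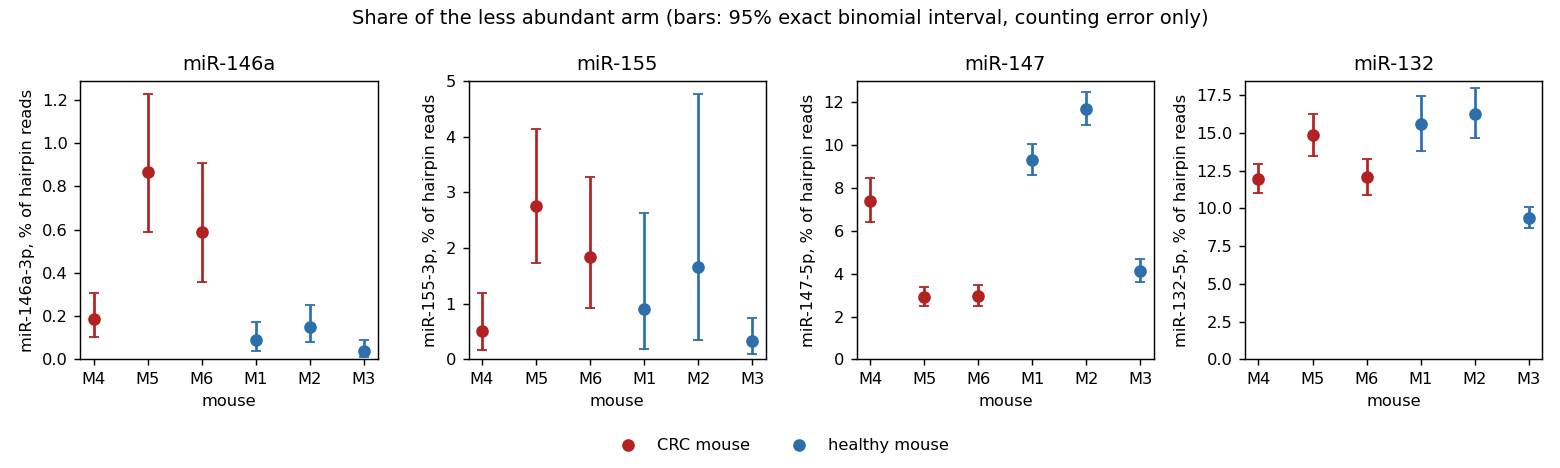
Reads of the less abundant arm as a percent of all reads of its hairpin, by mouse, with CRC mice (red) left and healthy mice (blue) right; error bars are exact 95% binomial intervals. miR-146a-3p is at 0.865% in M5 and 0.587% in M6 and at most 0.149% in a healthy mouse, and miR-147-5p is highest in M1 and M2.

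The members did not move as a group. Across the 6 mice, Pearson's r of log2 CPM was 0.95 between miR-132-3p and miR-212-3p, 0.91 between miR-155-5p and miR-132-3p and 0.83 between miR-155-5p and miR-212-3p. It was 0.35 between miR-146a-5p and miR-146b-5p, -0.83 between the arms of miR-146a and -0.88 between miR-146a-5p and miR-147-3p. These describe 6 profiles that share their scaling and are no test. By the same measure, among 279 miRNAs with a mean of at least 50 CPM, the nearest patterns to miR-155-5p were those of miR-135b-5p (0.97), miR-361-5p (0.96) and miR-15a-5p (0.96). Nearest to miR-132-3p were miR-29b-3p, miR-3074-1-3p and miR-92a-3p (0.98 to 0.99), and nearest to miR-212-3p miR-203-3p (0.99), an epithelial miRNA, with miR-22-3p and miR-24-1-5p. For miR-146a-5p these were miR-99b-5p (0.97), miR-141-5p and miR-133a-3p. For miR-146b-5p they were miR-29a-3p (0.91), miR-193b-3p and miR-34a-5p. For miR-147-3p they were miR-6481 (0.96), miR-3068-3p and miR-5131, and for miR-146a-3p miR-6240 (0.92), miR-6937-5p and miR-615-3p. With totals as the only scaling 8 of these 21 nearest patterns stayed among the nearest 3.

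Other miRNAs that respond to inflammatory signals also depended on the mice included. Of a list of 24, chosen with earlier results known, 23 were tested and edgeR called 0 (2.28% of all tested). DESeq2 called 1 (12.6% of all) and limma-voom 0. edgeR called 4 without M3 (3 higher, 1 lower; 5.9% of all) and 17 without M3 and M4 (5 higher, 12 lower; 53.2% of all). With all mice 2 were at an unadjusted p under 0.05 in edgeR, against 23.2% of all tested. Those 2 were miR-31-5p (log2 fold change 3.22, SE 1.27, adjusted p = 0.169, edgeR) and miR-101a-3p (-1.08, SE 0.39, adjusted p = 0.135). miR-31-5p, an epithelial miRNA, had 19813, 12107 and 5459 CPM in M4, M5 and M6, against 87.1 and 150.3 CPM in M1 and M2 and 3768 CPM in M3. Of the 23, 10 had positive values, with a median log2 fold change of -0.45 against -0.03 over all tested. miR-142a-3p, a miRNA of all leukocytes, had 3179, 4221 and 5358 CPM in M4, M5 and M6, against 903, 535 and 9945 CPM in M1, M2 and M3. It thus followed miR-155-5p in having its lowest values in M1 and M2 and its highest in M3. The other arm of that hairpin, miR-142a-5p, had 817, 520 and 802 CPM in M4, M5 and M6, against 630, 505 and 936 CPM in M1, M2 and M3. miR-142a-5p was also highest in M3, but M5 lay below M1. The myeloid miR-223-3p had 2360, 1405 and 1104 CPM in the CRC mice, against 1099, 1351 and 2453 CPM in the healthy mice, where M1 and M2 were not set apart from M5 and M6.

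Read against the leukocyte miRNAs, a scale added after the values were seen, miR-155-5p and miR-132-3p no longer set M3 above the CRC mice. Per 1000 reads of the 8 summed leukocyte miRNAs, miR-155-5p had 17.6, 19.2 and 14.5 reads in M4, M5 and M6, against 8.26, 5.31 and 10.8 in M1, M2 and M3. miR-132-3p had 73.5, 54.5 and 65.1 reads on this scale in the CRC mice, against 32.4, 49.7 and 43.7 in the healthy mice. In both, each CRC mouse lay above each healthy mouse, as did 7.4% of the 878 tested miRNAs on this scale, 65 in number. The other 5 tested members overlapped between the groups, among them miR-212-3p with 9.42, 9.73 and 7.88 reads in the CRC mice, against 9.97, 14.9 and 5.54 in the healthy mice. miR-146a-5p had 146, 87.7 and 84.1 reads in the CRC mice, against 229, 280.3 and 92.7 in the healthy mice, so M3 again sided with M5 and M6.

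That separation rests on 1 marker, miR-142a-3p. Per 1000 reads of the other 7 leukocyte miRNAs, miR-155-5p had 27.6, 45.2 and 38.9 reads in M4, M5 and M6, against 10.4, 6.19 and 29.2 in M1, M2 and M3. miR-132-3p had 115.3, 128.5 and 174.4 reads on that scale in the CRC mice, against 40.7, 58.0 and 117.9 in the healthy mice. M3 then lay above M4 for both, so the groups overlap, and 0 of the 7 tested members were higher in every CRC mouse, against 11.2% of all tested. miR-146a-5p had 229.3, 206.8 and 225.3 reads in the CRC mice, against 287.0, 326.8 and 250.1 in the healthy mice, and was the 1 member lower in every CRC mouse, against 5.81% of all tested. Both scales were chosen after seeing the values and are descriptions with no test.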

How the data were processed

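Small RNA of colorectum was prepared with the Ion Total RNA-Seq Kit and sequenced on an Ion Proton, per the labels' protocols. Reads were aligned with BWA to mm10 (GRCm38), per the submitters' processing notes; the counting rule was not stated there. The authors deposited whole-number counts for 1915 mature miRNAs in 6 columns, not normalized. Groups come from the labels.

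The main test was edgeR 4.0.16 under R 4.3.3 (TMM, filterByExpr, which kept 878, robust glmQLFit and glmQLFTest, two-sided, Benjamini-Hochberg). Each SE of an edgeR fold change is the log2 fold change over the root of its F. Each SE of a log2 ratio between arms or members is the root of the summed group variances, each divided by its 3 mice. DESeq2 1.42.0 and limma-voom (limma 3.58.1) were alternatives. Ratios used counts plus 0.5 and exact permutation over mice. The fit was tested on simulated data. Mature sequences are those deposited; 11 of the 12 arms of the 6 hairpins match RefSeq entries by name and sequence, and miR-147-3p was placed within the RefSeq hairpin (GRCm38.p6). Hosts are from GENCODE M21. The members, lists and alternatives were chosen with earlier results of these data known. Named miRNAs are the members, the other arms, the 3 nearest patterns of each member, and, of each list, at most 3 with the highest mean CPM. miR-142a-5p was added as the other arm of miR-142a-3p.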

Additional observations from a re-analysis of the deposited data

How the results depend on the processing

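Over all miRNAs edgeR called 20 with all mice, 43 with totals as the only scaling, 64 with no filter, 576 without M3 and M4, and from 0 to 237 with 1 mouse left out; DESeq2 called 111 and limma-voom 0 (216 at an unadjusted p under 0.05). Among the members edgeR called 0 with all mice, 1 with totals only, 4 without M3 and M4 (miR-155-5p, miR-132-3p and miR-146a-3p higher, miR-146a-5p lower), and from 0 to 1 with 1 mouse left out; DESeq2 called 1.

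Some directions turned. miR-146a-5p had 0.14 with totals only. miR-146b-5p, near 0 with all mice, had 0.0089 with RLE scaling, 0.0090 in DESeq2, 0.61 with totals only, 0.22 with the GC trend removed, and 0.22 without M3 and 0.25 without M6; its values with 1 mouse left out ran from -0.21 to 0.25. With neighbouring mice as blocks, miR-155-5p had -0.15, miR-147-3p -0.54, miR-132-3p -0.10, miR-212-3p -0.084, miR-146b-3p -0.048 and miR-147-5p 0.35. The values of miR-155-5p with 1 mouse left out ran from 0.48 to 2.22. The log2 ratio of miR-132-3p to miR-132-5p ran from -0.10 to 0.35 with 1 mouse left out. That of miR-146a-3p to miR-146a-5p ran from 1.97 without M3 to 3.12 without M4, against 2.48 with all mice. The cause of these turns was not tested. Leaving out single mice for the ratios was added after seeing the data. No miRNA name was repeated in the table, so the alternative for repeated names was not run. Precision is limited by groups of 3 and, for arms with few reads, by depth, which was 3206127 reads in the shallowest profile.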
